A study of Mus musculus with 721 samples.

Results

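The 9 genes described here are the Kruppel-like factor genes Klf2, Klf3, Klf4, Klf5, Klf6 and Klf9, the nuclear receptor genes Esrrb and Nr5a2, and Tfcp2l1, a gene of the CP2 family of transcription factors. They were taken by symbol from the 24483 genes of the count table, and each symbol had its own entry. Levels were measured by single-cell RNA-seq in wild-type embryos of the mouse strain C57Bl/6Babr, with single cells picked by hand. Before that, trophectoderm (E3.5, E4.5), extra-embryonic ectoderm (E5.5) or extra-embryonic tissues (E6.5) had been removed. At E5.5 epiblast and visceral endoderm were separated and both were picked, and endoderm-like cells were also present at E6.5. The study followed cells from the inner cell mass of the blastocyst to the start of gastrulation. By the labels the groups differ in developmental stage, with 99 cells at E3.5 (9 numbered embryos, and 9 cells without an embryo number that were summed and counted as 1 more, 10 in all), 105 cells from 5 embryos at E4.5, 267 cells from 9 embryos at E5.5 and 250 cells from 13 embryos at E6.5, where cells titled E6.75 are filed by the labels. Counted in this way, the labels give 37 embryos in all. The study states a smaller number of embryos, and the labels do not show where the counts part. Among E6.5 cells without a plate name, the embryo numbers 1 and 2 occur under both titles, E6.5 and E6.75, and were counted as separate embryos. If cells of the same embryo carry different labels, their sums are not independent replicates, which was not tested. No embryo was treated or carried an engineered allele.

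Kruppel-like factors bind GC-rich and CACCC-type DNA elements through zinc fingers at their C-terminal end, and the family holds activators as well as repressors. Klf2, Klf4 and Klf5 act beside Esrrb, Tfcp2l1 and Nr5a2 in the transcription factor network that keeps mouse embryonic stem cells in the naive state, the state that resembles the epiblast before implantation. Stat3, downstream of the cytokine LIF, activates Klf4 and Tfcp2l1, whereas the repressor Tcf7l1 holds down Esrrb. Klf3, Klf6 and Klf9 are expressed in many tissues and are usually left out of lists of naive factors. Primitive endoderm (PrE) and epiblast are the lineages that the inner cell mass forms, and the PrE gives rise to the visceral endoderm.

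The genes lie on 8 autosomes of the build GRCm38. Klf2 is at chr8:72319033-72321656, Klf3 at chr5:64803388-64832901, Klf4 at chr4:55527143-55532466, Klf5 at chr14:99298691-99315036, Klf6 at chr13:5861482-5870394 and Klf9 at chr19:23141226-23168134. Esrrb is at chr12:86361117-86521628, Tfcp2l1 at chr1:118627945-118685168 and Nr5a2 at chr1:136842571-136960448. Klf4 and Nr5a2 are on the minus strand and the other genes on the plus strand. Counts were taken over exons of the whole gene without strand. By gene span, Klf3 overlaps Gm20033 and C230096K16Rik, Klf9 overlaps Mir1192, and Tfcp2l1 overlaps Gm22094, Gm28882 and Gm23497. Whether the exons overlap was not tested. Where they do, reads of these neighbours cannot be told apart from those of Klf3, Klf9 and Tfcp2l1.

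RefSeq promoter windows (build GRCm38.p6), from 250 bases before to 50 bases after a transcription start, were matched for 8 of the 9 genes, all but Klf5. The windows of Klf2, Esrrb, Tfcp2l1 and Nr5a2 are shown because these genes moved together, lower in E5.5 than in E4.5 epiblast (values below). They lie at chr8:72318812-72319111 (plus strand), chr12:86360867-86361166 (plus strand), chr1:118627695-118627994 (plus strand) and chr1:136960399-136960698 (minus strand), and where a gene has more than 1 RefSeq start the first window is printed. Capitals mark a GC box (GGGCGG) or a CACCC box (CCNCACCC), the elements Kruppel-like factors are known to bind, on either strand.
Klf2: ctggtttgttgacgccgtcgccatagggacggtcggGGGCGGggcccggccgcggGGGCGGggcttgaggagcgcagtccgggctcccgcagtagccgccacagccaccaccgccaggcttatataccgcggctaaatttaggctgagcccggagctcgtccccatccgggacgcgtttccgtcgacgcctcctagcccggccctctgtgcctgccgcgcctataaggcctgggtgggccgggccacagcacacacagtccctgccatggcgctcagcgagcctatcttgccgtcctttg
Esrrb: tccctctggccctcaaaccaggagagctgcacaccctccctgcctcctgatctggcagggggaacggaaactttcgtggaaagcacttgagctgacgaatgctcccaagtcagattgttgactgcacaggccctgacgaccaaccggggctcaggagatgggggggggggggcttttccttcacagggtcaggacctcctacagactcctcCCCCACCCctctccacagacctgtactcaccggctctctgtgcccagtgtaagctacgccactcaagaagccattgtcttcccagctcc
Tfcp2l1: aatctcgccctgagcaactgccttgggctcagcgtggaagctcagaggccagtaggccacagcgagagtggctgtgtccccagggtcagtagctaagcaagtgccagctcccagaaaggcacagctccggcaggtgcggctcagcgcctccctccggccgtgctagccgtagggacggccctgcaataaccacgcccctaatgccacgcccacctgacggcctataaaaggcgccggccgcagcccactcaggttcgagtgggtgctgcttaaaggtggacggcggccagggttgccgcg
Nr5a2: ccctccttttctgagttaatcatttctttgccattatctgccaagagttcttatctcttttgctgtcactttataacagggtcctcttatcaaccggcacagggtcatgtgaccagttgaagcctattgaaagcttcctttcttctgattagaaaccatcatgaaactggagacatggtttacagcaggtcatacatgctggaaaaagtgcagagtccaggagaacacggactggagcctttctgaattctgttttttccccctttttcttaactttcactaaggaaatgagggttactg
The Klf2 window holds 2 GC boxes and the Esrrb window 1 CACCC box, and the Tfcp2l1 and Nr5a2 windows shown hold neither. Of the 8 genes with a window, 4 held a GC box (35.7% of all 32851 windows did) and 3 a CACCC box (16.6% of all windows). The half-site AAGGTCA, which Esrrb and Nr5a2 are known to bind, was in none of the 8 and in 4.72% of all windows, and the CP2 site (CCNG, 6 bases of any kind and CCNG again) was in 5 of the 8 and in 29.5% of all windows. The CP2 site can overlap a GC box. These matches are letters in a window and not measured binding.

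The depth of a cell lay between 66896 and 3792936 counts, with a median of 692863, and 128 wells held a pair of cells by the labels. Cells were sorted into classes by clustering on genes outside the 9, the 3 comparison lists and the marker lists. No class was drawn from the values of these genes. The shares of all genes that passed, given beside the results, include genes that took part in the clustering. Genes named below from outside these lists could also take part. At E4.5 the epiblast-like class held 29 cells and the PrE-like class 76. At E5.5 the epiblast-like class held 260 cells and an endoderm-like class 7. At E6.5 there were 176 epiblast-like, 42 endoderm-like and 23 primitive streak-like cells, and 9 further cells stayed unnamed. The clusters were named from the marker lists, so the marker sums describe the classes and do not test them. Endoderm markers summed to 17188 to 28500 CPM (counts scaled to the same total in every sum) in PrE-like and to 2102 to 6300 CPM in epiblast-like cells at E4.5, and to 19913 to 41663 CPM in endoderm-like and 1097 to 7776 CPM in epiblast-like cells at E6.5. Primitive streak markers summed to 2155 CPM in the streak-like class, but also to 436 to 3592 CPM in the E6.5 and 3157 CPM in the E5.5 endoderm-like sums. All 5 E5.5 cells that the titles label as visceral endoderm were in the endoderm-like class. All cells of 1 embryo and class (3 or more) were pooled into 1 sum of counts, and the embryo is the replicate. Of the sums, 2 stand apart. The endoderm-like cells of E6.5 embryo 6 (plate P2) hold 1841 CPM of globin RNA, against 0 to 2.18 CPM in the other 7 endoderm sums, and E3.5 embryo 4 (plate P8) holds 1268 CPM of trophoblast markers, against 52.1 to 921 CPM in the other 9, with Cdx2 at 120 CPM. Plate names such as P1 and P2 recur at several stages, and the labels do not say whether they mean the same plates, so stage and plate cannot be told apart. The joint plate name P11, P6 and P10 was given to the 9 E3.5 cells without an embryo number and to E5.5 cells (2 epiblast sums). There Klf5 was at 192 CPM at E3.5 and at 1.68 and 8.05 CPM at E5.5, and Tfcp2l1 at 980.4 CPM and at 1.85 and 6.29 CPM. Results that rest on either of the sums named above are given with and without it, and the part of these cells in the results was not tested.

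**Figure D1:**
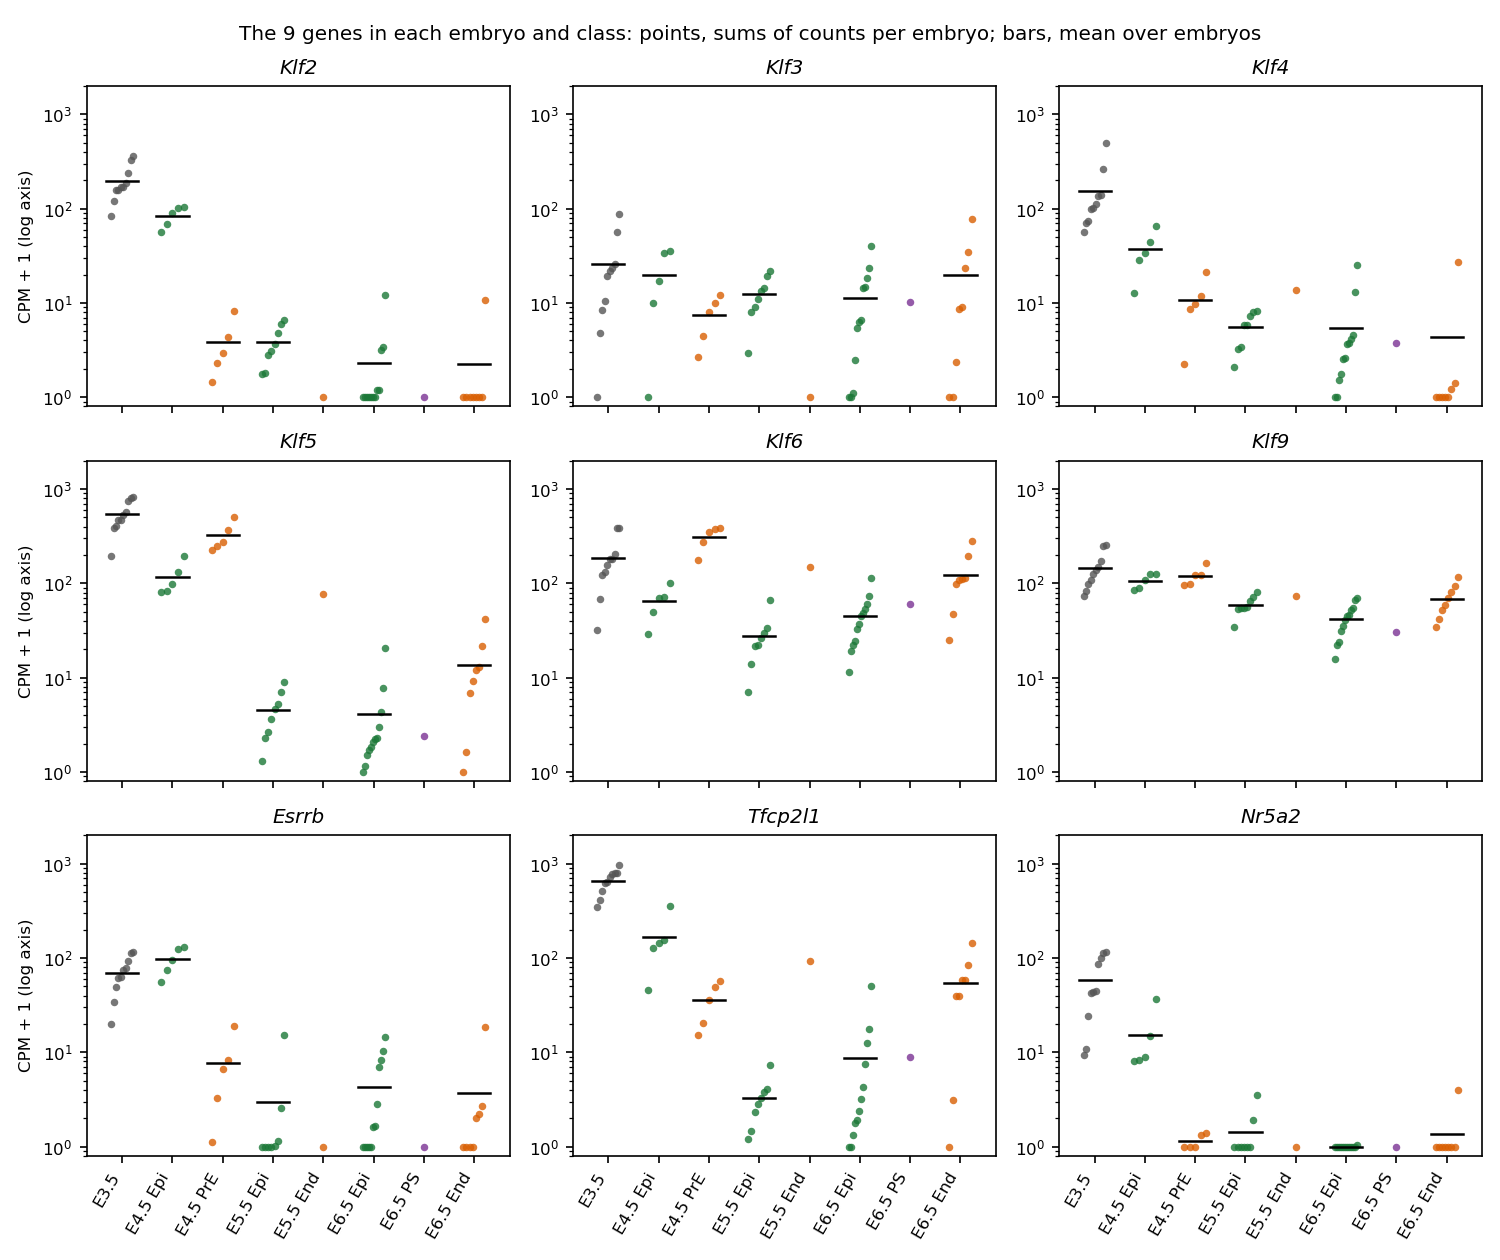
Level of each of the 9 genes (CPM plus 1, log axis) in every embryo, by stage and class. Each point is the sum of the cells of 1 embryo and each bar is the mean over embryos. Epi, epiblast-like. PrE, primitive endoderm-like. End, endoderm-like. PS, primitive streak-like. Klf2, Klf4, Klf5, Esrrb, Tfcp2l1 and Nr5a2 are high at E3.5 and low in E5.5 and E6.5 epiblast, while Klf9 stays between 14.9 and 257 CPM in every sum.

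The inner cell mass at E3.5 contained the RNA of all 9 genes. Tfcp2l1 ranged from 346 to 980 CPM over the 10 embryos (median 679), Klf5 from 192 to 817 CPM (median 504) and Klf2 from 83.2 to 364 CPM (median 167). Every E3.5 embryo had counts of each gene except Klf3, which was at 0 in 1 embryo and otherwise reached 86.4 CPM. Klf4 ranged from 55.3 to 497 CPM (median 106), Klf6 from 30.9 to 387 CPM (median 167) and Klf9 from 72.3 to 257 CPM (median 131). Esrrb ranged from 18.9 to 114 CPM (median 68.2) and Nr5a2 from 8.27 to 115 CPM (median 43.0). The highest Klf4 sum, in embryo 1 of plate P8, has 3 cells. Per kilobase of exon, which allows levels of different genes to be compared, Klf2 averaged 107 ± 47.9 and Klf5 104 ± 38.7 CPM per kb (SD, n = 10), Tfcp2l1 70.1 ± 20.7, Klf4 50.6 ± 43.9 and Klf6 41.9 ± 26.9. The lowest were Esrrb at 11.4 ± 5.17, Nr5a2 at 9.85 ± 6.997 and Klf3 at 2.22 ± 2.38 CPM per kb.

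Within E3.5 the cells were alike in which of the 6 naive factors they carried (Klf2, Klf4, Klf5, Esrrb, Tfcp2l1 and Nr5a2). At least 1 count of all 6 was found in 65 of 99 cells (65.7%), and no cell had fewer than 3. Tfcp2l1 was detected in 100% of the cells and Nr5a2, the least often detected of the 6, in 78.8% (exact binomial 95% interval 69.4 to 86.4, which covers counting error only). Levels across the 99 cells went together most for Esrrb and Tfcp2l1, with a Spearman rho of 0.40 (0.41 after centring within embryos), and for Klf2 and Klf4, with a rho of 0.31 in both forms. The cells of an embryo share a plate, and low levels carry counting noise, so these are descriptions. The squared coefficient of variation, set against genes of similar mean as the study did, placed Klf5 at the 89.3th and Tfcp2l1 at the 84.4th percentile of 7606 genes at E3.5. Klf4 was at the 93.5th percentile with all wells and at the 44.0th percentile among 7609 genes when the 9 wells with a pair of cells were left out, so its place depended on those wells.

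From E3.5 to the E4.5 epiblast 2 of the 9 genes passed the test, Klf5 and Klf6, both lower. Klf5, which acts in the trophectoderm as well as in the inner cell mass, was at 81.3, 96.6, 192.9, 80.3 and 132 CPM in embryos 1 to 5 at E4.5. Only the lowest E3.5 embryo lay within that range. The change was -2.21 ± 0.80 (log2 fold change ± SE, 5 against 10 embryos, adjusted p = 0.0394, quasi-likelihood test of edgeR, Benjamini-Hochberg adjustment). Klf6 was at 70.8, 28.1, 68.9, 101.004 and 48.7 CPM in the E4.5 epiblast, values that overlap the E3.5 range at its low end, and changed by -1.53 ± 0.50 (adjusted p = 0.0213, same test). Of all 13563 genes tested, 20.6% passed in this comparison, close to 2 in 9, so the count says nothing particular about these genes. Both calls were kept without the 9 cells that have no embryo number, and both were lost in other alternatives. Klf5 missed the limit of 0.05 without E3.5 embryo 4 (-2.11, adjusted p = 0.0539) and without any single E4.5 embryo (adjusted p from 0.0507 to 0.0963), and Klf6 missed it without E4.5 embryo 2 (adjusted p = 0.0726) or 5 (adjusted p = 0.0678).

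The other factors of the naive network had lower means in E4.5 epiblast than at E3.5, with the exception of Esrrb, but no test passed. Tfcp2l1 was at 143, 126, 156, 356 and 45.2 CPM in embryos 1 to 5, and its difference from E3.5 was -2.0005 ± 0.95 (adjusted p = 0.13). Klf4 was at 43.5, 11.7, 64.7, 27.7 and 32.9 CPM, with a difference of -2.09 ± 1.07 (adjusted p = 0.159). Both overlapped the E3.5 range with 1 embryo. Klf2 (83.4 ± 20.8 CPM, SD, n = 5) differed by -1.24 ± 1.06 and Nr5a2 (14.5 ± 12.4 CPM) by -2.01 ± 1.21, with adjusted p of 0.451 and 0.249. Esrrb, a receptor without a known natural ligand, was at 125, 74.4, 95.3, 55.1 and 131 CPM in E4.5 epiblast, where it had its highest mean of any class (96.2 ± 32.5 CPM). Its E3.5 mean was 69.2 ± 31.2 CPM (n = 10), and the ranges overlapped (0.47 ± 1.26, adjusted p = 0.863). Klf3 and Klf9 differed by -0.42 ± 1.11 and -0.44 ± 0.34 (adjusted p = 0.862 and 0.38, edgeR). Where the 2 groups were fitted alone, Klf2 (adjusted p = 0.0168), Klf4 (0.0108) and Tfcp2l1 (0.000338) passed as well, with a smaller SE from the same values.

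In the E4.5 PrE the 9 genes parted. Klf2, Klf4, Tfcp2l1 and Nr5a2 were lower than at E3.5, whereas Klf5, Klf6 and Klf9 kept levels within the E3.5 range. Klf2, a close relative of Klf4, was at 7.27, 0.437, 1.93, 1.298 and 3.38 CPM in the PrE-like cells of embryos 1 to 5, all below the lowest E3.5 embryo (-6.10 ± 1.41, adjusted p = 0.00123). Tfcp2l1 was at 56.0, 34.9, 19.3, 14.2 and 48.5 CPM, also below every E3.5 embryo (-4.26 ± 1.09, adjusted p = 0.00377). Nr5a2 had 12 counts in all 76 PrE-like cells, 0 in 3 embryos and 0.386 and 0.324 CPM in the others (-8.50 ± 1.75, adjusted p = 0.000229). The fold of Nr5a2 rests on these few counts. Klf4 was at 1.26, 8.74, 20.5, 7.62 and 10.8 CPM, again below the E3.5 range (-3.98 ± 1.199, adjusted p = 0.0123, edgeR for all 4). Esrrb (0.119 to 18.2 CPM) did not overlap E3.5 either but missed the limit (-3.38 ± 1.54, adjusted p = 0.115), and passed where the 2 groups were fitted alone (-3.34, adjusted p = 0.00495). These 4 of 9 compare with 19.3% of all genes, and all 4 calls were kept under each of the 15 alternatives run for this comparison. Klf5 (223 to 507 CPM) differed from E3.5 by -0.74 ± 0.74, Klf6 (176 to 384 CPM) by 0.76 ± 0.46, Klf9 (95.2 to 165 CPM) by -0.27 ± 0.33 and Klf3 (1.65 to 11.2 CPM) by -1.96 ± 1.21, with adjusted p from 0.256 to 0.647.

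PrE and epiblast of the same embryos could be compared at E4.5 in 5 embryos. Klf6 was higher in the PrE, and Klf2 and Nr5a2 were lower. Klf6 was at 276, 176, 384, 372 and 348 CPM in PrE-like cells of embryos 1 to 5, above every epiblast value and higher in 5 of 5 embryos (2.29 ± 0.57, adjusted p = 0.00665). This call was kept under all 14 alternatives. Klf2 was higher in the epiblast in 5 of 5 embryos, at 103, 68.5, 101.2, 55.4 and 89.1 CPM against at most 7.27 CPM in the PrE (-4.86 ± 1.37, adjusted p = 0.0201). Without embryo 2, 3, 4 or 5 the adjusted p of Klf2 lay between 0.0558 and 0.0724, while the fold kept between -4.97 and -4.65. Nr5a2 was at 7.87, 14.1, 36.0, 7.36 and 7.04 CPM in the epiblast, without overlap with the PrE (-6.50 ± 1.65, adjusted p = 0.0082), and missed the limit when cells were clustered by Ward's method (-3.53, adjusted p = 0.14). The 3 of 9 compare with 6.53% of all genes past the limits, set at 0.05 for the adjusted p and, on the log2 scale, at 2 between these lineages and at 1 elsewhere. Esrrb was higher in the epiblast in 5 of 5 embryos without overlap, with a difference of -3.86 ± 1.66 (adjusted p = 0.145), and Tfcp2l1 in 4 of 5 with a difference of -2.26 ± 1.05 (adjusted p = 0.183). Both passed when only these groups were fitted (adjusted p = 0.0046 and 0.0064, edgeR).

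Klf5 stood out from the other naive factors at E4.5 in its order. It was at 273, 367, 507, 248 and 223 CPM in the PrE of embryos 1 to 5, above the epiblast of the same embryo in 5 of 5 and without overlap between the lineages. The difference was 1.47 ± 0.84 (adjusted p = 0.312, edgeR), short of both limits. Klf4 was higher in the epiblast in 5 of 5 embryos (-1.89 ± 1.15, adjusted p = 0.353), with overlapping ranges. With the embryo as a replicate block Klf2, Klf6 and Nr5a2 passed again. Klf3 was higher in the epiblast in 4 of 5 embryos (-1.54 ± 1.295, adjusted p = 0.549) and Klf9 in 2 of 5 (0.17 ± 0.38, adjusted p = 0.875, edgeR). Neither passed. Of the wells at E4.5, 8 of the 29 epiblast-like and 30 of the 76 PrE-like ones held a pair of cells. Genes found together in such a well need not come from 1 cell. Klf5 was detected in all 29 epiblast-like and all 76 PrE-like cells. Klf6 was also detected in all 76 PrE-like cells, of which 14 held counts of Klf2 and the other 62 did not. Of the 29 epiblast-like cells, 20 held both genes, 3 Klf2 alone, 4 Klf6 alone and 2 neither. Of the 6 naive factors the median PrE-like cell held 2 and the median epiblast-like cell 5, and all 6 were found in 14 of 29 epiblast-like and 1 of 76 PrE-like cells.

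**Figure D2:**
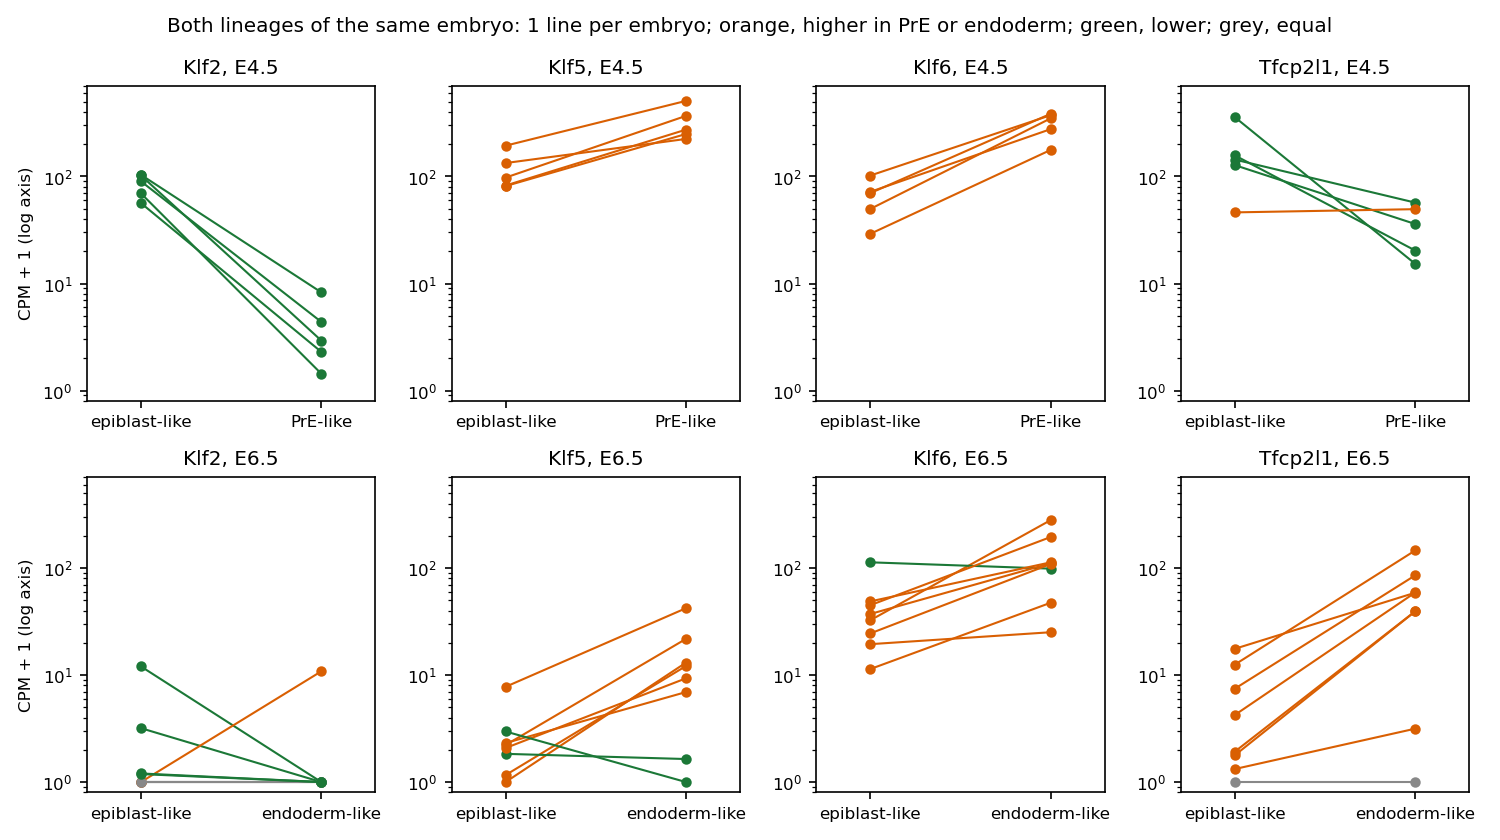
Klf2, Klf5, Klf6 and Tfcp2l1 in the epiblast-like and the PrE-like or endoderm-like cells of the same embryo (CPM plus 1, log axis), with 1 line per embryo, 5 embryos at E4.5 (top) and 8 at E6.5 (bottom). Orange lines are higher in PrE or endoderm, green lines lower and grey lines equal. Klf5 and Klf6 are higher in the PrE in 5 of 5 embryos, and Tfcp2l1 is higher in the epiblast in 4 of 5 embryos at E4.5 and higher in the endoderm in 7 of 8 at E6.5.

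The step from E4.5 to E5.5 epiblast took 5 of the 9 genes down, Klf2, Klf5, Esrrb, Tfcp2l1 and Nr5a2, and none up. Klf5 ranged from 0.305 to 8.05 CPM over the 8 embryos at E5.5 (median 3.17) and Tfcp2l1 from 0.206 to 6.29 CPM (median 2.06), each below every E4.5 embryo. The changes were -5.05 ± 0.80 for Klf5 (adjusted p = 3.64e-05) and -6.14 ± 1.02 for Tfcp2l1 (adjusted p = 7.43e-05). Klf2 ranged from 0.782 to 5.64 CPM (median 2.37), a change of -4.89 ± 1.12 (adjusted p = 0.00418). Esrrb was at 0 in 4 of 8 embryos and at most 1.55 CPM in 3 others, and reached 14.2 CPM in embryo 1 of plates P2 and P3, where 3 of 26 cells held its 255 counts. Its change was -5.59 ± 1.47 (adjusted p = 0.0135). Nr5a2 was at 0 in 6 of 8 embryos and at 0.938 and 2.52 CPM in the others, with the 2.52 CPM coming from 33 counts in 1 cell (-5.07 ± 1.24, adjusted p = 0.00691, edgeR's quasi-likelihood test for all 5). None of the 5 overlapped between the stages. The share of all genes without overlap was not computed, so this only describes genes that had passed. Of all genes, 5.74% passed in this comparison, and these 5 calls were kept under all 13 alternatives.

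The other 4 genes fell short of the limits in this step. Klf4, one of the naive factors, ranged from 1.12 to 7.18 CPM at E5.5 (median 4.84), below every E4.5 epiblast value, but its change of -3.002 ± 1.009 had an adjusted p of 0.0603 (edgeR). It passed with DESeq2 (adjusted p = 0.0289), with sums of at least 5 cells (adjusted p = 0.00826) and where the 2 groups were fitted alone (adjusted p = 0.000443). Klf6 (5.97 to 65.3 CPM, median 23.3) overlapped E4.5 and differed by -1.26 ± 0.48 (adjusted p = 0.104), and passed with sums of at least 5 cells (-1.46, adjusted p = 0.023) and with the groups alone (-1.26, adjusted p = 0.0452). Klf9 (33.4 to 80.7 CPM, median 54.2) lay below every E4.5 epiblast value and differed by -0.87 ± 0.34 (adjusted p = 0.11), a difference under the fold limit. Klf3, a repressor of the family, ranged from 1.95 to 20.6 CPM and differed by -0.70 ± 1.12 (adjusted p = 0.83). In single cells, 140 of 260 E5.5 epiblast-like cells (53.8%) held no count of any of the 6 naive factors and none held more than 3, whereas Klf9 was detected in 89.2% (84.8 to 92.7) of the same cells at a median depth of 781262 counts. Esrrb was detected in 2.31% of these cells (0.851 to 4.95) and in 89.7% (72.6 to 97.8) of the E4.5 epiblast-like cells.

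**Figure D3:**
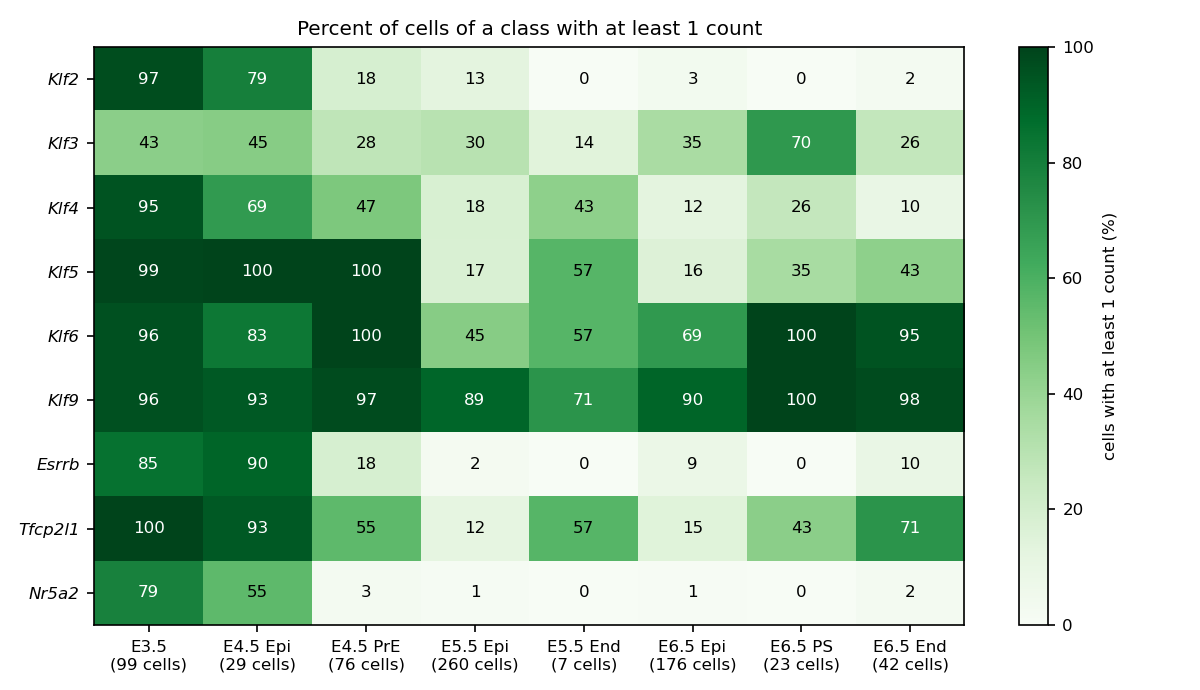
Percent of the cells of each class in which at least 1 count of a gene was found, for the 9 genes (rows) and 8 classes (columns). Tfcp2l1 goes from 100% of cells at E3.5 to 11.5% in E5.5 epiblast and 71.4% in E6.5 endoderm, and Klf9 is at 71.4% or more in every class.

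Cells of at least 300000 counts were also thinned to that number, which left out 1 to 16 shallower cells a class. Klf9 in E5.5 epiblast went from 89.2% to 86.5% and Klf5 from 17.3% to 13.9%, and Tfcp2l1 in E6.5 endoderm went from 71.4% to 70.0%. The shares of genes with few counts moved more. Klf5 went from 34.8% to 22.2% in the streak-like class and from 42.9% to 30.0% in the E6.5 endoderm, and in the E5.5 endoderm-like class, of which 6 cells were left, Klf4 went from 42.9% to 16.7% and Klf9 from 71.4% to 50.0%. The order of E4.5 above E5.5 epiblast was the same in thinned cells for Klf2 (78.6% against 12.3%) and Esrrb (89.3% against 1.98%). On the variability measure, only Klf3, Klf6 and Klf9 reached the required mean of 10 CPM in E5.5 epiblast cells, so the 6 naive factors were not ranked. Among Klf3, Klf6 and Klf9, Klf6 varied most, at the 94.3th percentile of 7886 genes, and was found in 33.3% to 74.3% of the cells of an embryo. Klf9 was at the 15.6th percentile.

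Between E5.5 and E6.5 epiblast 1 of the 9 genes passed, Nr5a2, against 8.35% of all genes. That call compares 54 counts in 2 of 8 embryos with 1 count over all 12 E6.5 embryos, and no fold is given because nearly all sums are at 0. Tfcp2l1 ranged from 0 to 49.2 CPM at E6.5 (median 1.83), with an overlap of the stages and a difference of 1.74 ± 0.78 (adjusted p = 0.16). Klf6 ranged from 10.4 to 112 CPM (median 40.0) and differed by 0.73 ± 0.40 (adjusted p = 0.269). Klf9 ranged from 14.9 to 68.5 CPM (median 41.9) and differed by -0.50 ± 0.27 (adjusted p = 0.262, edgeR). Klf2, Klf3, Klf4, Klf5 and Esrrb had differences of -0.9996 ± 0.85, -0.16 ± 0.91, -0.056 ± 0.81, -0.10 ± 0.62 and 0.74 ± 1.105 on the log2 scale, with adjusted p from 0.529 to 0.986. With 5 clusters at E6.5 Klf2 passed (-7.91, adjusted p = 0.000102), and with Ward clustering Esrrb did (4.04, adjusted p = 0.0284, edgeR). At E6.5, embryos on plates P1 to P3 and those without a plate name are told apart by their titles. Klf2 averaged 1.95 ± 3.81 CPM in the 8 epiblast sums of plates P1 to P3 and 0.0976 ± 0.113 CPM in the 4 without a plate name, and its difference from E5.5 passed with the latter alone (-4.36, adjusted p = 0.000309) and not with the former (-0.44, adjusted p = 0.8). Tfcp2l1 likewise passed with the embryos without a plate name (2.63, adjusted p = 0.0179). The highest of their sums, at 49.2 CPM, had 343 of its 478 counts in 1 cell. These 2 differences cannot be told apart from the plates.

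Only 1 embryo (embryo 2 without a plate name, titled E6.5) gave primitive streak-like cells, so their values have no replicate. Klf6 was at 59.4 CPM in the 23 streak-like cells and 51.9 CPM in the 6 epiblast-like cells of the same embryo, and Klf9 at 29.8 and 30.1 CPM. Klf3 was at 9.36 and 5.55 CPM, Klf4 at 2.75 and 1.54 CPM and Klf5 at 1.44 and 0.514 CPM. Tfcp2l1 was at 7.86 CPM (126 counts) in the streak-like cells and at 49.2 CPM (478 counts) in the epiblast-like cells, the highest epiblast value at E6.5. Of these 478 counts, 1 cell held 343. Klf2 and Nr5a2 had no count in either group, and Esrrb had 0 counts in the streak-like and 18 in the epiblast-like cells. None of 23 streak-like cells held a Klf2, Esrrb or Nr5a2 count, which with exact binomial limits allows a share of up to 14.8%. That limit covers counting error among cells of 1 embryo only, and a cell without a count can still hold the RNA. Klf6 and Klf9 were each found in 23 of 23.

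Some of the genes had higher levels in the endoderm than in the epiblast at E6.5. At E6.5, Tfcp2l1 was higher in endoderm-like than in epiblast-like cells of the same embryo in 7 of 8 embryos, with the remaining embryo at 0 in both. Its endoderm levels ranged from 0 to 145 CPM (median 48.1), overlapping the epiblast, and the difference was 2.76 ± 0.73 (8 against 12 embryos, adjusted p = 0.00805). The highest value came from embryo 6, where 1 cell held 1033 of 1129 counts. Without the endoderm-like cells of that embryo the difference was 2.35 (adjusted p = 0.0266). It missed the limit under Ward clustering (2.07, adjusted p = 0.0675) and in a fit of these groups alone (2.75, adjusted p = 0.0724, edgeR).

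Klf6 and Klf5 were also higher in E6.5 endoderm than in E6.5 epiblast. Klf6 ranged from 24.1 to 279 CPM (median 109) and was higher in 7 of 8 embryos (1.46 ± 0.38, adjusted p = 0.00656), and on plates P1 to P3 alone the difference was 1.33 (adjusted p = 0.0742). Klf5 ranged from 0 to 41.1 CPM (median 9.72) and was higher in 6 of 8 embryos. It passed (1.94 ± 0.62, adjusted p = 0.0241), but not without embryo 6 (1.34, adjusted p = 0.136), where 1 cell held all 320 counts. In every other endoderm sum with Klf5 counts, 1 cell held at least 66.7% of them. The Klf5 call was also lost on plates P1 to P3 (1.71, adjusted p = 0.105). It was lost with 5 clusters (1.64, adjusted p = 0.149) and with the groups fitted alone (1.98, adjusted p = 0.229, edgeR) too. Nr5a2 passed as well, on 23 counts in 1 cell of embryo 6, and turned to -0.61 (adjusted p = 0.776) without it. With the embryo as a replicate block, Nr5a2 did not pass (1.56, adjusted p = 0.597) and 1094 in place of 2049 of all genes did. These 4 of 9 compare with 15.1% of all genes. Klf9 was higher in 7 of 8 embryos (33.5 to 116 CPM, 0.73 ± 0.27, adjusted p = 0.0536), and Klf2, Klf3, Klf4 and Esrrb had overlapping ranges with adjusted p from 0.566 to 0.956 (edgeR's quasi-likelihood test). Klf2 was at 0 in 7 of 8 endoderm embryos and Klf4 in 5 of 8, and their results depended on the settings. Klf2 passed with 5 clusters (6.53, adjusted p = 0.00294) and Klf4 with sums of at least 5 cells (-6.44, adjusted p = 0.00188). The Klf4 fold rests on the 1 Klf4 count that the endoderm sums of at least 5 cells held.

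Trophoblast markers, which include the keratins Krt8 and Krt18, summed to 958 to 2068 CPM in the E6.5 endoderm and to 67.9 to 487 CPM in the epiblast. Without the keratins the endoderm sums were 17.9 to 90.5 CPM and overlapped the epiblast (2.54 to 88.4 CPM), with the highest in embryo 6. Their part in the Klf5, Klf6 and Tfcp2l1 differences was not tested. The endoderm-like cells formed a pair of clusters of 21 cells each, 1 of which held all 14 cells without a plate name. Tfcp2l1 was detected in 19 of 21 cells (90.5%) of that cluster and in 11 of 21 (52.4%) of the other, and Klf9 in 20 and 21 of 21. The level of Tfcp2l1 in the pooled cells went the other way, at 48.6 CPM in the former cluster and 64.6 CPM in the latter. The latter level includes the 1 cell of embryo 6 (plate P2) that held 1033 counts. Levels without that cell were not computed, so the order of the pooled levels can rest on it.

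Between PrE at E4.5 and endoderm at E6.5, 2 of the 9 genes passed, both lower, against 12.9% of all genes. Klf5 changed by -4.68 ± 0.79 (adjusted p = 6.61e-05), without overlap between 223 to 507 CPM and 0 to 41.1 CPM, and this was kept under all 16 alternatives. Klf6 changed by -1.36 ± 0.48 (adjusted p = 0.0454), with overlap, and kept its call under 3 of 16. Without the endoderm-like cells of E6.5 embryo 6 its adjusted p was 0.0699, and without E4.5 embryo 1, 3, 4 or 5 it lay between 0.0772 and 0.104. Tfcp2l1 differed by 0.62 ± 0.92 (adjusted p = 0.737), with E4.5 values of 14.2 to 56.0 CPM inside the E6.5 range. Klf9 differed by -0.83 ± 0.34 (adjusted p = 0.0947, edgeR), and Klf2, Klf3, Klf4, Esrrb and Nr5a2 had adjusted p from 0.325 to 0.566. Of these, Klf4 passed with sums of at least 5 cells (-7.46, adjusted p = 0.000546). That fold rests on the 1 Klf4 count that the E6.5 endoderm sums then held.

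The difference between endoderm and epiblast therefore changed from E4.5 to E6.5 for Tfcp2l1, from -2.26 to 2.76. The change was 5.01 ± 1.32 (adjusted p = 0.0243, a test of the interaction in the same edgeR fit), where 3.80% of all genes passed. It was 4.605 (adjusted p = 0.0382) without the endoderm-like cells of embryo 6. It missed the limit under Ward clustering (4.25, adjusted p = 0.0845), in a fit of these groups alone (5.04, adjusted p = 0.0797), and without E4.5 embryo 2, 3 or 4 (adjusted p = 0.0615, 0.0698 and 0.101). Nr5a2 passed too (adjusted p = 0.000922), but the E6.5 side of it is the 1 cell named above, and it did not pass without that embryo or with the embryo as a replicate block (8.72, adjusted p = 0.33). Klf2 missed the limit (4.72 ± 1.57, adjusted p = 0.0736) and passed on plates P1 to P3 alone (4.90, adjusted p = 0.0445) and with 5 clusters (11.44, adjusted p = 0.000103). The values of Klf5 and Klf6, which had higher means in PrE or endoderm at both stages, were 0.47 ± 1.02 and -0.83 ± 0.67 (adjusted p = 0.923 and 0.605, edgeR).

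**Figure D4:**
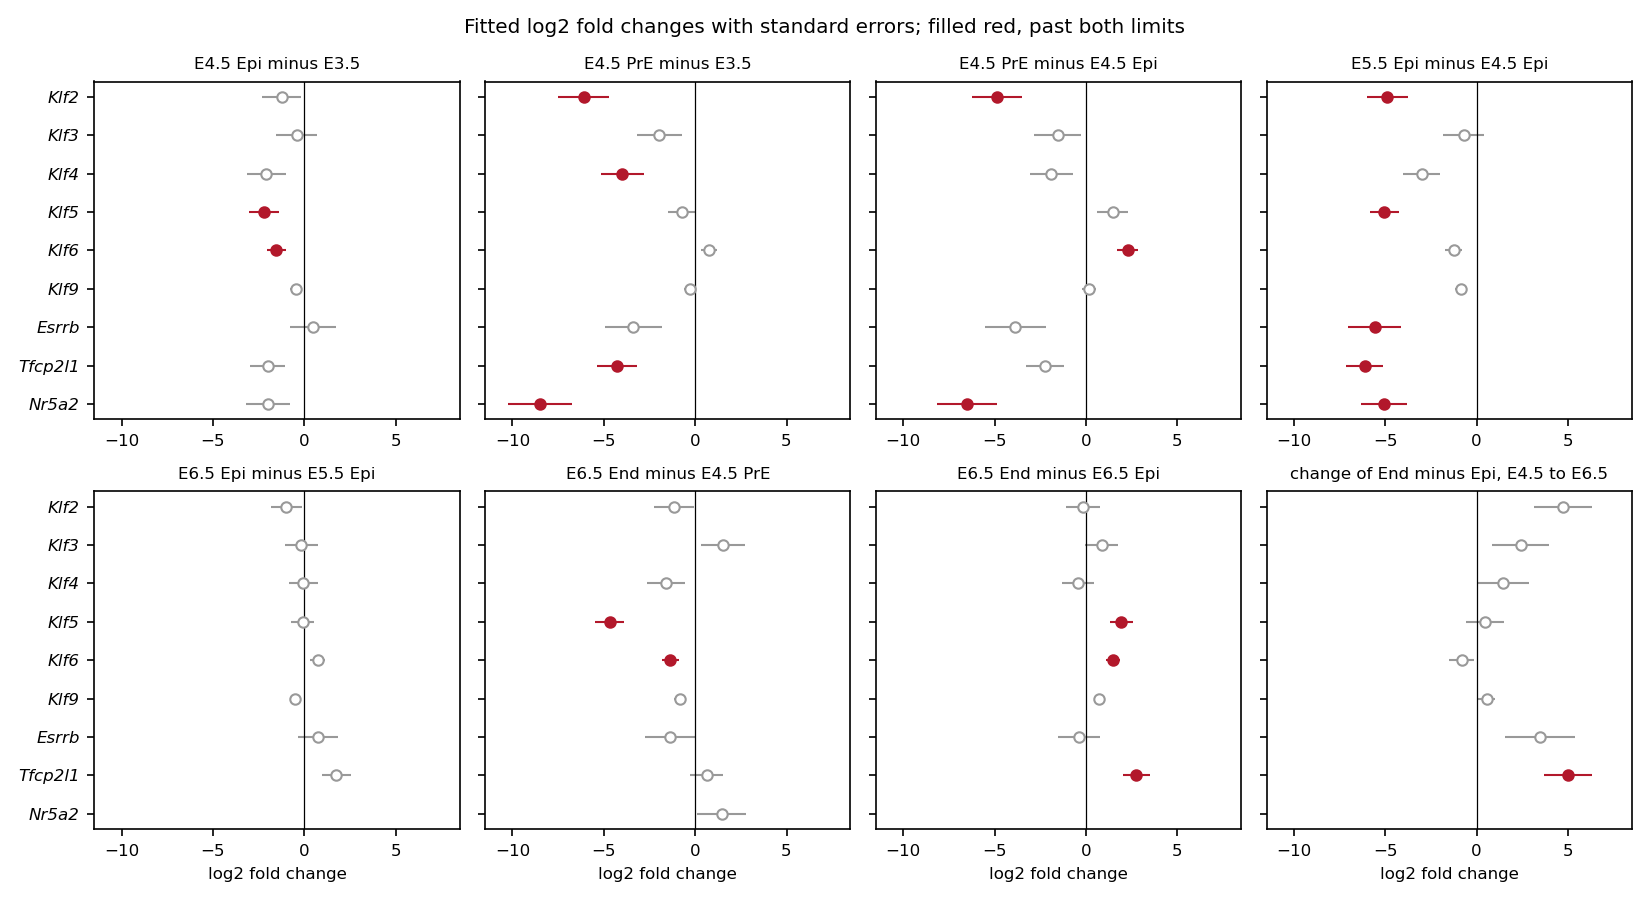
Fitted log2 fold changes of the 9 genes in the 8 comparisons, with standard errors as bars. Filled red points passed both limits and open grey points did not. Nr5a2 is left out of the comparisons of E6.5 with E5.5 epiblast and of E6.5 endoderm with epiblast and of the change between stages, because nearly all its sums there are 0. The 5 red points of the E5.5 against E4.5 epiblast comparison lie between -6.14 and -4.89.

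At E5.5 the endoderm-like class had 1 embryo with enough cells (5 cells), and its values are given without a test. Tfcp2l1 was at 92.5 CPM (603 counts), Klf5 at 76.7 CPM (500 counts) and Klf6 at 148 CPM (966 counts). All 3 lay above every E5.5 epiblast embryo, but a single cell held most of these counts (442 for Tfcp2l1, 405 for Klf5 and 887 for Klf6). Klf9 was at 72.6 CPM and Klf4 at 12.7 CPM, and Klf2, Klf3, Esrrb and Nr5a2 had no count in this sum.

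The summed level of the 6 Kruppel-like factor genes, per kilobase of exon, went from 335 ± 122 CPM per kb at E3.5 (SD, n = 10) to 118 ± 26.9 in E4.5 epiblast (n = 5), 22.8 ± 6.12 in E5.5 epiblast (n = 8) and 22.2 ± 7.49 in E6.5 epiblast (n = 12). It was 163 ± 37.0 in the E4.5 PrE and 47.5 ± 21.1 in the E6.5 endoderm (n = 8). Klf2, Klf4 and Klf5 together made up 77.3% ± 5.75 of the sum at E3.5, 67.0% ± 7.01 in E4.5 epiblast and 17.0% ± 7.96 in E5.5 epiblast, with no overlap between E4.5 and E5.5. In the PrE their share was 40.9% ± 9.84, nearly all of it Klf5 (38.0% ± 9.97), beside 43.5% ± 9.95 of Klf6. In E5.5 epiblast Klf9 made up 53.7% ± 10.7 and Klf6 24.9% ± 10.5. In E6.5 epiblast Klf6 (43.6% ± 18.7) and Klf9 (39.9% ± 15.6) were close to each other, and in E6.5 endoderm Klf6 held 54.3% ± 18.2. These shares are descriptions, and a share can grow because other genes of the sum fell.

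**Figure D5:**
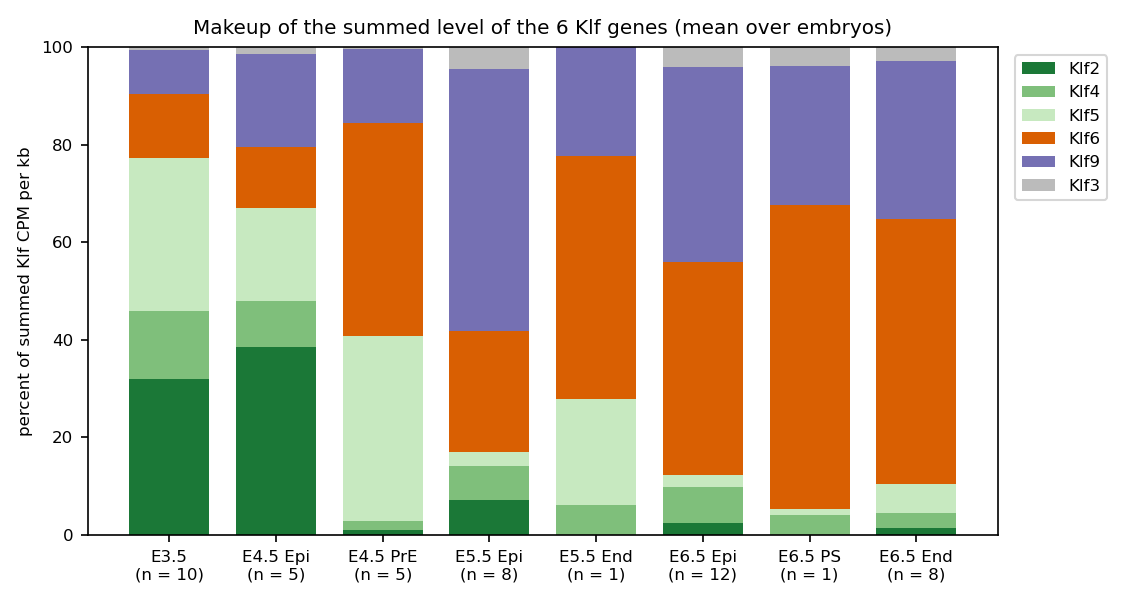
Share of each of the 6 Kruppel-like factor genes in their summed level (CPM per kilobase of exon, mean over embryos, percent) in the 8 classes, with the number of embryos under each bar. Klf2, Klf4 and Klf5 make up 77.3% at E3.5 and 17.0% in E5.5 epiblast, where Klf9 makes up 53.7%.

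Ordered by mean level over the classes with more than 1 embryo, Klf2 ran from E3.5 (197 CPM) over E4.5 epiblast (83.4 CPM) to 2.86 CPM or less in the other classes, and only the step below E4.5 epiblast separated neighbours without overlap. Klf5 ran from E3.5 (541 CPM) over PrE (324 CPM) and E4.5 epiblast (117 CPM) to E6.5 endoderm (12.5 CPM), with the steps around E4.5 epiblast free of overlap. Klf6 was highest in PrE (311 CPM), then E3.5 (184 CPM), E6.5 endoderm (121 CPM) and E4.5, E6.5 and E5.5 epiblast (63.5, 44.1 and 26.6 CPM), and all neighbours overlapped. Klf3, Klf4, Klf9 and Tfcp2l1 had overlap at every step of their order too. Esrrb was separated between E3.5 and PrE, and Nr5a2 between E4.5 and E5.5 epiblast.

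Across the 48 sums of the fit, the levels of Klf2 and Nr5a2 were the most alike among the 9 genes (Pearson r = 0.90 of log2 levels) and those of Klf3 and Klf5 the least (r = 0.11). The sums share stages and plates, so r is a description. By the rule of the 3 highest r over all tested genes, Klf2 was followed by Gabarapl2 (r = 0.93), Gm15698 (0.93) and Jam2 (0.93), and Nr5a2 by the same genes. Klf5 was followed by Fbxo15 (0.92), Cd9 (0.91) and Sycn (0.91), and Klf6 by Aqp8 (0.81), Cd63 (0.79) and Snx2 (0.78). The closest gene was Eif2s2 for Klf4 (0.90), Junb for Klf9 (0.80), Jam2 for Esrrb (0.85), Brp44l-ps for Tfcp2l1 (0.86) and Gga1 for Klf3 (0.65).

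A list of 18 other genes of the naive network gave a frame for these changes. In E5.5 against E4.5 epiblast 10 of the 18 were lower and none higher (median log2 fold change -3.15, against 0.13 over all genes tested and -4.89 over the 9), where 5.74% of all genes passed. Among them were Tcl1 (-7.32 ± 0.96), an Akt co-activator, Ncoa3 (-2.92 ± 0.43), a co-activator that Esrrb binds, the LIF receptor gene Lifr (-5.79 ± 1.08) and Tet2 (-5.29 ± 1.001), with adjusted p from 2.67e-06 to 0.000444 (edgeR). In PrE against E3.5, 9 of 18 were lower (median -1.92, beside 19.3% of all genes passing), including Nanog (-7.24 ± 1.24) and Dppa3 (-6.49 ± 1.13). In E4.5 epiblast against E3.5, 1 was higher and 4 lower, beside 20.6% of all genes. From E5.5 to E6.5 epiblast the list split, with Nanog (3.13 ± 0.79) and Lifr (3.08 ± 0.89) among 4 higher genes and Zfp42 (-3.06 ± 0.62) and Pou5f1 (-1.25 ± 0.25) among 6 lower ones, while none of the 9 genes rose and 8.35% of all genes passed. In E6.5 endoderm against PrE 10 of 18 were lower (12.9% of all genes passed) and against E6.5 epiblast 3 were higher and 4 lower (15.1%). In PrE against E4.5 epiblast 1 of 18, Nanog, passed (lower, -5.78 ± 1.19), close to the 6.53% of all genes, and 1, Pou5f1, changed its difference between the stages (-1.96 ± 0.44), beside 3.80%.

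Of 4 factors known to oppose the naive state, Otx2 (3.90 ± 0.72) and Zfp281 (1.45 ± 0.43) were higher in E4.5 epiblast than at E3.5, and Nr6a1 was higher in E5.5 than in E4.5 epiblast (2.09 ± 0.53, adjusted p = 0.00911, edgeR). Nr6a1 was also higher in E6.5 than in E5.5 epiblast (1.18 ± 0.40). Otx2 was lower in PrE than in E4.5 epiblast (-6.09 ± 1.04), but Otx2 (7.48 ± 1.09) and Zfp281 (2.14 ± 0.51) were higher in E6.5 endoderm than in PrE. The difference of Otx2 between endoderm and epiblast changed between the stages (5.86 ± 1.13, adjusted p = 0.00195, edgeR). Tcf7l1, the repressor of Esrrb, passed in 1 comparison only, lower in E6.5 endoderm than in epiblast (-1.86 ± 0.65, adjusted p = 0.0398). Of all genes, 3.80% to 20.6% passed in these comparisons. Of 27 paralogues of the 9 genes, 23 were tested. In E5.5 against E4.5 epiblast none passed, with a median of 0.24. In E4.5 epiblast against E3.5, 4 were higher, among them Klf7 (4.496 ± 0.94), and 1 lower, the Esrrb paralogue Esrra (-3.97 ± 1.005), and in PrE against epiblast Esrra was higher (3.52 ± 1.03, adjusted p = 0.0243, edgeR). The 5 of 23 in E4.5 epiblast against E3.5 are near the 20.6% of all genes that passed there. Over the other 5 comparisons at most 3 of the 23 passed in a direction.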

How the data were processed

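The authors sequenced RNA of hand-picked cells by G&T-seq with Smart-seq2 (paired reads of 100 bases, a kit that does not keep strand), trimmed reads with Trim Galore 0.4.3 and aligned them with HISAT2 2.0.5 (submitters' processing notes) to GRCm38. The deposited values are raw counts of reads with a mapping quality of at least 20 over exons per gene, counted in SeqMonk. The authors kept cells with at least 4000 genes and at most 10% mitochondrial reads and removed trophoblast cells. Each column was 1 cell, and wells marked as double were kept.

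From these counts, cells were clustered after the steps of SC3 (8 clusters, or 6 within E6.5) on genes detected in 6% to 94% of cells, without the 9 genes, the comparison lists and the markers, and clusters were named by markers. 5 clusters had been planned at E6.5, and 6 were used after 5 were seen to merge streak with epiblast cells. Counts were summed per embryo and class (at least 3 cells, 48 sums, 1476466 to 49484352 counts per sum) and tested in 1 fit over all sums with edgeR 4.0.16 (R 4.3.3, quasi-likelihood, TMM, filtered by expression, 13563 genes), with p-values adjusted by Benjamini-Hochberg over all of them and limits of 0.05 for the adjusted p and 1 for the log2 fold change, or 2 between E4.5 lineages. CPM are counts scaled to the same total in every sum. Clustering and levels used python 3.11.15 and scikit-learn 1.9.0. Sums of the same embryo come from the same animal, which pairs them, and their deviations correlated with r from 0.0135 to 0.154. Embryos, as counted from the labels, are the replicates. The study describes its batches as separate litters, and the labels do not tie single embryos to a litter. Intervals of shares are exact binomial (95%) and cover counting error only.

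The 9 genes and all lists were chosen with earlier results of these data known. All 9 are given in each comparison, and at most 4 genes per other list and comparison, those with the smallest adjusted p. Markers were lists for endoderm, epiblast, primitive streak, trophoblast and blood. On simulated counts for 13563 genes with 200 changed 8-fold, the test found 82 (E4.5 epiblast against E3.5), 89 (PrE against E3.5), 55 (PrE against epiblast), 85 (E5.5 against E4.5 epiblast), 92 (E6.5 against E5.5 epiblast), 68 (E6.5 endoderm against PrE), 95 (E6.5 endoderm against epiblast) and 57 (change between stages), all with the right sign. The 9 E3.5 cells without an embryo number were summed as 1 embryo. Alternatives were leaving these cells out, DESeq2 1.42.0, another scaling (relative log expression), no filter, sums of at least 5 cells, single cells only, Ward clustering, E6.75 cells left out, plates apart, each E4.5 embryo left out and the embryo as a replicate block. Chosen after seeing the data were 5 clusters at E6.5, fits of the compared groups alone, and leaving out E3.5 embryo 4 or the endoderm-like cells of E6.5 embryo 6.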

Additional observations from a re-analysis of the deposited data

Results flagged for a closer look

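In 45 groups of 4 to 10 embryos, 10 held an embryo far from the others, in 6 of the 9 genes, and chance alone gives about 1 in 20 groups such an embryo. That rate is for normally distributed values and does not hold for groups nearly all at 0, such as Klf2, Klf4, Esrrb and Nr5a2 in the E6.5 endoderm. In the E6.5 endoderm, Klf2 was at 9.82 CPM in embryo 8 of plate P3 and at 0 in the other 7. Klf4 was at 26.2 CPM in embryo 7 of plate P3 (others 0 to 0.409 CPM), and Esrrb at 17.4 CPM in embryo 2 of plate P1 (others 0 to 1.67 CPM), where it came from 39 counts. Klf3 was at 76.2 CPM in embryo 6 of plate P2 (others 0 to 33.4 CPM), with 575 of 594 counts in 1 cell, and Nr5a2 was at 2.95 CPM there and at 0 in the others. This is the embryo whose endoderm-like cells hold globin RNA.

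At E3.5, Klf4 was at 497 CPM in embryo 1 of plate P8, a sum of 3 cells (others 55.3 to 264 CPM). In E4.5 epiblast, Nr5a2 was at 36.0 CPM in embryo 3 (others 7.04 to 14.1 CPM). In E5.5 epiblast, Klf6 was at 65.3 CPM in embryo 2 of plates P2 and P3 (others 5.97 to 32.7 CPM), Esrrb at 14.2 CPM in embryo 1 of the same plates (others 0 to 1.55 CPM) and Nr5a2 at 2.52 CPM in embryo 3 of plates P7, P4 and P5 (others 0 to 0.938 CPM).

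The difference between endoderm and epiblast changed from E4.5 to E6.5 by a test of the interaction for Tfcp2l1 (5.01 on the log2 scale) and for Nr5a2 (11.16, a value set by sums at or near 0).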

How the results depend on the processing

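Of 72 values (9 genes in 8 comparisons) 23 passed, and 11 of these passed under every alternative run for their comparison, 20 alternatives in all. The 11 are the 4 of PrE against E3.5, the 5 of E5.5 against E4.5 epiblast, Klf6 in PrE against epiblast and Klf5 in E6.5 endoderm against PrE. The causes of the changes below were not tested. Counts were low for Nr5a2 after E4.5, for Klf2 and Esrrb at E6.5 and for Klf4 in the E6.5 endoderm (77 counts). Klf6 (5034 counts) and Klf9 (2761 counts) had more counts in the E6.5 endoderm. Sums there have 3 to 7 cells, so the values of every gene rest on few cells.

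Of the 9 genes, 2 passed in E4.5 epiblast against E3.5, and 1 did with 5 clusters, without E3.5 embryo 4, with Ward clustering, no filter or single cells only, 0 with at least 5 cells, 5 with the compared groups alone, and 0 to 1 without an E4.5 embryo (0 without embryo 2 or 5). Leaving out the 9 E3.5 cells without an embryo number changed no call on the 9 genes. In PrE against E3.5 4 passed, and 5 with the groups alone. In E5.5 against E4.5 epiblast 5 passed, 6 with DESeq2 and 7 with at least 5 cells or the groups alone. In PrE against epiblast 3 passed, 5 with the groups alone and 2 to 3 without an embryo. In E6.5 against E5.5 epiblast 1 passed, 2 with 5 clusters, Ward clustering or embryos without a plate name, and 0 with the groups alone. In E6.5 endoderm against PrE 2 passed, and 1 did with 5 clusters, plates P1 to P3, no E6.75 cells, Ward clustering, no embryo 6, no filter, relative log expression or single cells, and 1 to 2 without an E4.5 embryo. In E6.5 endoderm against epiblast 4 passed, 2 on plates P1 to P3 or without embryo 6 and 1 with the groups alone. For the change between stages 2 passed, and 1 did with Ward clustering, the replicate block, no embryo 6 or the groups alone, and 1 to 2 without an E4.5 embryo.

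The genes that passed among all tested were 2799, 2613, 885, 778, 1132, 1756, 2049 and 516 in the order of the comparisons in the plot of fold changes. With the compared groups alone they were 1361 in E4.5 epiblast against E3.5, 1614 in PrE against E3.5, 2080 in E5.5 against E4.5 epiblast, 862 in E6.5 endoderm against PrE, 912 in E6.5 endoderm against epiblast and 307 for the change. E6.5 against E5.5 epiblast gave 346 with embryos without a plate name, 1710 with at least 5 cells and 2607 with no filter. E6.5 endoderm against epiblast gave 1308 on plates P1 to P3 and 1094 with the replicate block, and the change gave 800 with DESeq2 and 211 with the replicate block. Without 1 E4.5 embryo, PrE against epiblast gave 405 to 514, E5.5 against E4.5 epiblast 515 to 620 and the change 216 to 316. DESeq2 moved the split of E6.5 endoderm against PrE from 709 of 1756 higher to 967 of 1912 higher. Relative log expression moved the median of all genes from -0.28 to -0.18 for the change.

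Some values passed only under an alternative, and these are given beside each result. Directions turned for values that had not passed, and for Nr5a2 in E6.5 endoderm against epiblast, which had (-0.61 without embryo 6). In E4.5 epiblast against E3.5, Klf3 was 0.062 without E3.5 embryo 4 and Klf9 0.069 with at least 5 cells, and in PrE against E3.5 Klf9 was 0.15 with at least 5 cells. In E6.5 against E5.5 epiblast, 5 clusters gave 0.42 for Klf3, 0.69 for Klf4, 0.15 for Klf5, -0.25 for Klf6 and -0.18 for Tfcp2l1, plates P1 to P3 gave 0.40 for Klf4 and 0.30 for Klf5, leaving out E6.75 cells 0.11 for Klf4, and at least 5 cells 0.12 for Klf4 and 0.044 for Klf5. In E6.5 endoderm against PrE, Nr5a2 was -1.28 with Ward clustering and -3.83 without embryo 6. In E6.5 endoderm against epiblast, Klf2 was 6.53 with 5 clusters (where it passed, adjusted p = 0.00294, edgeR), 0.0048 without E6.75 cells, 0.62 with at least 5 cells, 0.073 without embryo 6 and 0.030 with single cells. There Klf3 was -0.82 with the replicate block, Klf4 0.097 with Ward clustering, and Esrrb 0.20 with 5 clusters and 0.028 on plates P1 to P3. For the change, Klf4 was -4.32 with at least 5 cells, where the E6.5 endoderm sums held 1 Klf4 count, and -1.47 with the replicate block. Klf5 was -0.13 without embryo 6 and Klf6 0.15 with 5 clusters.

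With the embryo as a replicate block, PrE against epiblast gave -5.32 for Klf2, 2.35 for Klf6 and -7.15 for Nr5a2 (adjusted p = 0.0432, 0.000845 and 0.0408, edgeR), and the pairing ended no call on the 9 genes other than the pair of Nr5a2 calls at E6.5 and in the change.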
